A study of Homo sapiens with 12 samples.

Results

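The DNAJ family, also called HSP40 or J proteins, was followed across 4 groups of HEK293 cells, a widely used line derived from human embryonic kidney. Members were the genes whose array row carried a single symbol that starts with DNAJA, DNAJB or DNAJC and a number, further letters allowed (DNAJC5B, DNAJA1P5), and the brightest row was kept where a gene had more than 1. This gave 36 members (37 rows) of the 14232 genes that have a row of their own, in a table of 22011 rows. DNAJB13 was the member with a second row. Another 15 rows list a DNAJ symbol together with other symbols, and they were not used because no gene can be assigned to them.

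Each group had 3 arrays, which the labels call biological replicates without saying what a replicate number marks. The first group received full-length MED12, a subunit of the Mediator complex that connects transcription factors with RNA polymerase II. The second received MED12 lacking the PQL and Opa domains at its C-terminus, here the PQL/Opa deletion. The third received a plasmid in which the H1 promoter drives a hairpin (shRNA) against MED12. The controls received nuclear GFP alone. Both MED12 constructs carry that nuclear GFP at their N-terminus and lie in the controls' vector, pcDNA5/TO. The hairpin lies in peGFP-C1, and the labels list no control hairpin, so hairpin and vector cannot be told apart in its comparison with GFP. All 4 groups were lipofected 24 hours after plating, taken 48 hours later and sorted for 20 minutes for viable cells with detectable GFP.

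J proteins are the partners that direct HSP70 chaperones to their work. Their J domain stimulates the ATPase of HSP70, and other parts of each protein bring a client or place HSP70 at a site such as a ribosome, a clathrin coat or the lumen of the endoplasmic reticulum. Class A and class B members resemble bacterial DnaJ most, class C members share little beyond the J domain, and several members, DNAJB1 above all, are classical targets of the heat shock factor HSF1. HSF1 binds heat shock elements, which are repeats of a GAA unit in alternating orientation.

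Start-site sequences of the 3 members that stood highest with full-length MED12 are shown with the heat shock units they hold. They are RefSeq sequences on build GRCh38.p14, 250 bases before to 50 bases after a transcription start, written 5′ to 3′ along the gene. Capitals mark 2 units head to head (GAANNTTC) or tail to tail (TTCNNGAA). The first is the second of 3 start windows of DNAJB1, chr19:14518348-14518647 on the minus strand, with matches that begin 77 and 47 bases before the start. The next is the second of 2 windows of DNAJB4, chr1:78004689-78004988 on the plus strand, with a match 98 bases before the start. Where a gene had several windows, 1 that holds matches is shown. The first window of DNAJB4 and the third of DNAJB1 hold no match, and the first of DNAJB1 holds 1. The last is the only window of DNAJA1, chr9:33025023-33025322 on the plus strand. It has a match 198 bases before the start and a run of 3 alternating units, overlapping matches of both kinds, that begins at base 4 of the transcript.
DNAJB1: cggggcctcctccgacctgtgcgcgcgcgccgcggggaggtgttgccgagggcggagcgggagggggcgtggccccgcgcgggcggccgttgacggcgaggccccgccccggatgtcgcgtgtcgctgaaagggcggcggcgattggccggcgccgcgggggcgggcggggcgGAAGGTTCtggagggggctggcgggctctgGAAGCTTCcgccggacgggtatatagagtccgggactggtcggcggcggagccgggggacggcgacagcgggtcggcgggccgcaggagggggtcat
DNAJB4: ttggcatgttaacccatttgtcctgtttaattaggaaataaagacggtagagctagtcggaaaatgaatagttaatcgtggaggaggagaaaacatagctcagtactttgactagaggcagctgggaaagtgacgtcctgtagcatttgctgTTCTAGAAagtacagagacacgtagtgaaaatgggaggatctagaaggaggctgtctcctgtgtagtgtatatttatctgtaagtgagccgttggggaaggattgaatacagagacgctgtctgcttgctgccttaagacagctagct
DNAJA1: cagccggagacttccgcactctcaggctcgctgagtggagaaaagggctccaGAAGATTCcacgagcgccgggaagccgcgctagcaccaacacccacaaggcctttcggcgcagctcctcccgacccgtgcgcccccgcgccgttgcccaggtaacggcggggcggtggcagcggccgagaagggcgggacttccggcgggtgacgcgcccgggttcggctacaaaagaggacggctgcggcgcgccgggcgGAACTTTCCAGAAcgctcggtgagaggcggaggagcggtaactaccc

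The same search was made over all 41 start windows of the 30 members that have one in the table, on both strands; each pair of units is its own reverse complement. GAANNTTC stood in 5 of the 41 windows (12.2%), against 6.77% of all 35116 RefSeq windows of that length. TTCNNGAA stood in 2 (4.88%), against 7.74% of all windows. One or the other stood in 6 windows (14.6%) of 5 members, DNAJA1, DNAJA4, DNAJB1, DNAJB4 and DNAJC6, against 13.5% of all windows. Runs of 3 alternating units were rarer, 1 member window (2.44%) and 0.49% of all windows. The endoplasmic reticulum stress element, a longer motif of the unfolded protein response, was in 0 of the 41 windows and in 0.0769% of all. DNAJA4, a class A member, holds a pair of head-to-head units 91 and 52 bases before a start, in 1 of its 3 windows. This window lies at chr15:78264312-78264611 on the plus strand, and the array values of DNAJA4 are set beside those of DNAJB1 further on.
DNAJA4: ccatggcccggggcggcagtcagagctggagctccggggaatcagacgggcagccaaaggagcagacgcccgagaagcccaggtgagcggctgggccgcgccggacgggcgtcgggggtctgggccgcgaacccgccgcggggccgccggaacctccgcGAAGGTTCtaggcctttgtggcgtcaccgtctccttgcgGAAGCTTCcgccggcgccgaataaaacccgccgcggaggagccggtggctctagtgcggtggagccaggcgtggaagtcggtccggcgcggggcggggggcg
These matches describe letters in a window and were not tested for binding.

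Values are log2 intensities as the submitters normalized them, and differences between groups are log2 fold changes with their standard error (SE). They were tested with limma, and adjusted p-values are Benjamini-Hochberg values over all 22011 rows with a threshold of 0.05. The MED12 row checked the labels. It read 10.63, 10.66 and 10.75 with full-length MED12, 8.62, 8.90 and 9.25 with the PQL/Opa deletion, 3.63, 3.63 and 3.74 with the shRNA, and 4.03, 4.56 and 4.66 with GFP. In limma the row passed for both constructs over GFP (adjusted p = 3.67e-08 and 1.54e-06). The shRNA over GFP gave -0.75 ± 0.20 (SE), or 0.60-fold, and did not pass (adjusted p = 0.73), although the arrays did not overlap. Array medians lay between 3.39 and 3.51, while the SD of the values on an array ran between 1.34 and 1.60. The 3 narrowest arrays were the first replicates of the PQL/Opa deletion (1.45), the shRNA (1.34) and GFP (1.40). Of 5 markers of HEK293 cells, KRT8 and VIM stood at the 96.6th and 93.15th percentile of all rows with GFP, PAX2 at the 75.8th, LIN28B at the 69.1st and KRT18 at the 55.3rd. Among 6 markers of other cell types PTPRC, CD3E, ALB and PECAM1 lay at or below the 23.3rd percentile, COL1A1 at the 66.1st and the epithelial gene EPCAM at the 83.9th. None of these 11 markers passed in any of the 4 comparisons. Percentiles set different probes side by side and are a rough position only.

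DNAJB1 was the member that differed among the 4 groups. This cytosolic class B protein is the stress-inducible partner of HSP70. Its log2 values were 5.59, 5.86 and 6.35 with full-length MED12, 3.90, 4.52 and 4.63 with the PQL/Opa deletion, 2.64, 3.65 and 2.77 with the shRNA, and 3.41, 3.88 and 3.86 with GFP. Every full-length array stood above every array of the other groups, and every PQL/Opa deletion array stood above every GFP array, by a narrow margin. The shRNA and GFP arrays overlapped through the second shRNA replicate. The moderated F test over the 4 groups gave an adjusted p of 0.0121 for DNAJB1, and 1 of 36 members passed it, against 0.0863% of all rows. At an unadjusted p under 0.05 the F test took 2 members, DNAJB1 and DNAJB4 (5.56%, against 4.62% of all rows). The SD of DNAJB1 over the 12 arrays, 1.18, lay at the 99.63rd percentile of all rows. The F test no longer passed when replicate 2 or 3 of full-length MED12 or replicate 3 of the shRNA was left out (adjusted p 0.084, 0.0623 and 0.0821), or without the 3 narrowest arrays (0.0616).

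With full-length MED12, DNAJB1 averaged 5.93 ± 0.38, against 3.72 ± 0.27 with GFP (SD, n = 3 each). This is a log2 fold change of 2.22 ± 0.30 (SE), or 4.65-fold, with a 95% interval of 1.55 to 2.88. Taken alone this contrast missed the threshold (limma, adjusted p = 0.0664), although DNAJB1 ranked 4 among all rows by p. A fit that blocks on the replicate number, which pairs the arrays of these 2 groups, took it past the threshold (adjusted p = 0.016). It also passed without the second shRNA replicate (adjusted p = 0.0175) and not when any other array was left out. In bulk RNA, more transcript in each cell and more cells with the transcript cannot be told apart.

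DNAJB1 averaged 4.35 ± 0.39 with the PQL/Opa deletion and 3.02 ± 0.55 with the shRNA (SD, n = 3 each). The PQL/Opa deletion stood 0.64 ± 0.30 (SE) above GFP, with an interval of -0.03 to 1.30 and an unadjusted p of 0.0598. The shRNA stood at -0.69 ± 0.30 relative to GFP, with an unadjusted p of 0.0427 and an adjusted p of 0.983. Full-length MED12 set directly against the PQL/Opa deletion gave 1.58 ± 0.30, or 3.00-fold, with an unadjusted p of 0.000252 and an adjusted p of 0.923. The order of the group means was thus full-length, PQL/Opa deletion, GFP, shRNA. None of the 3 steps between neighbours passed over all rows. The 3 comparisons with GFP use the same GFP arrays.

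**Figure D1:**
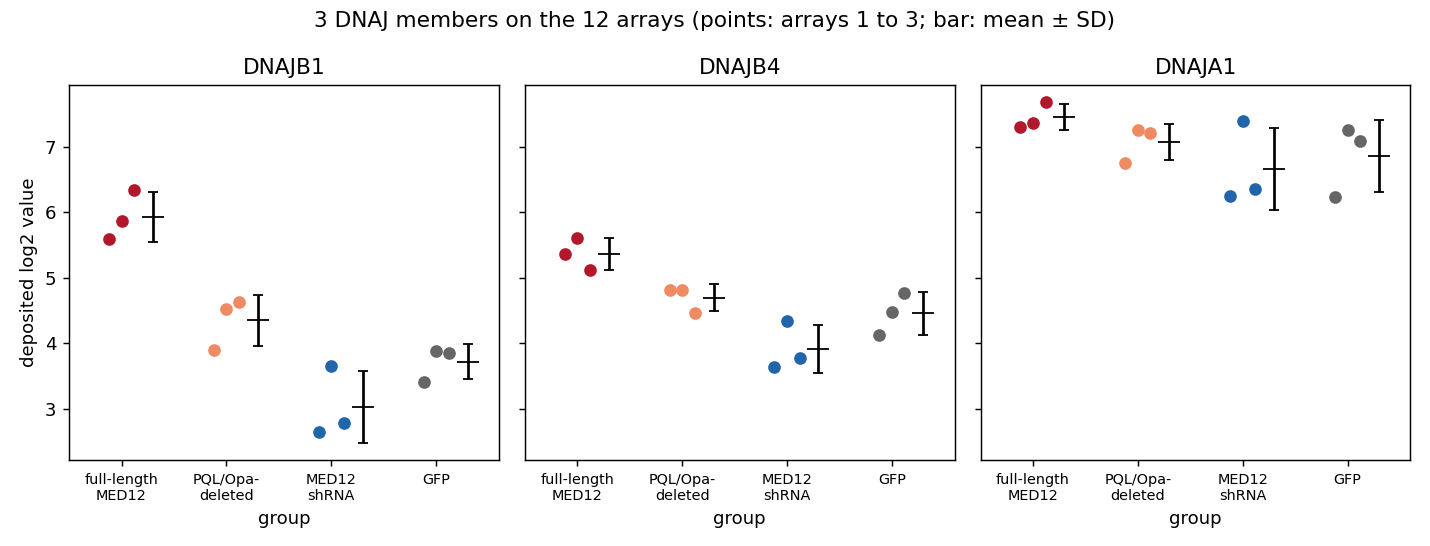
Log2 array values (vertical axis) of DNAJB1, DNAJB4 and DNAJA1 in the 4 groups, 3 arrays each; points are single arrays, and the bars beside them are the group mean ± SD. DNAJB1 with full-length MED12 lies at 5.59 to 6.35, above every array of the other groups, while the DNAJA1 points of the shRNA group spread between 6.25 and 7.39 and those of the GFP group between 6.24 and 7.26.

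DNAJB4, a cytosolic class B relative of DNAJB1, followed the same order of means. Its log2 values were 5.37, 5.61 and 5.11 with full-length MED12, 4.81, 4.82 and 4.47 with the PQL/Opa deletion, 3.64, 4.34 and 3.77 with the shRNA, and 4.12, 4.47 and 4.77 with GFP. The full-length arrays again overlapped with no other group, whereas the PQL/Opa deletion and GFP arrays interleaved, and so did those of shRNA and GFP. Full-length MED12 over GFP was 0.91 ± 0.23 (SE), or 1.88-fold, with an unadjusted p of 0.0022 and an adjusted p of 1. The PQL/Opa deletion over GFP was 0.24 ± 0.23 and the shRNA over GFP was -0.54 ± 0.23, the second with an unadjusted p of 0.0396. The PQL/Opa deletion value was 0.08 without replicate 1 of GFP, 0.40 without replicate 3 of GFP and 0.02 without the 3 narrowest arrays. Full-length over PQL/Opa deletion was 0.67 ± 0.23, with an unadjusted p of 0.0146. The F test gave DNAJB4 an adjusted p of 0.261, so it did not pass.

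DNAJA1, a farnesylated class A member and one of the main cytosolic J proteins, stood next. Its log2 values were 7.31, 7.36 and 7.68 with full-length MED12, 6.76, 7.25 and 7.22 with the PQL/Opa deletion, 6.25, 7.39 and 6.35 with the shRNA, and 6.24, 7.26 and 7.09 with GFP. The full-length arrays all lay above the GFP arrays, narrowly, and the second shRNA array lay among them. The shRNA and GFP groups each held both low and high arrays. The log2 fold change with full-length MED12 was 0.59 ± 0.33 (SE, unadjusted p = 0.0996). Without the first GFP replicate, one of the narrow arrays, it was 0.28. That of the PQL/Opa deletion was 0.21 ± 0.33, and -0.10 without that GFP replicate. The shRNA over GFP was -0.20 ± 0.33 (limma, unadjusted p = 0.556). Full-length over PQL/Opa deletion was 0.38 ± 0.33 (unadjusted p = 0.275).

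The rest of class A stayed closer to GFP. DNAJA2, the other main cytosolic class A protein, gave 0.27 ± 0.25 with full-length MED12, 0.02 with the PQL/Opa deletion and -0.20 with the shRNA. DNAJA3, which works in mitochondria, gave -0.01, 0.16 and 0.12 in the same comparisons, each with an SE of 0.18. DNAJA4 holds, in 1 of its 3 start windows, the same pair of head-to-head units as the DNAJB1 window shown. It had values of 2.91, 2.75 and 2.61 with full-length MED12 and 2.96, 2.62 and 2.66 with GFP. Its log2 fold changes were 0.01, 0.02 and 0.13 for full-length, PQL/Opa deletion and shRNA over GFP, each ± 0.18. DNAJC6, the other member with such a match, gave -0.07, -0.07 and -0.05.

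Across all 36 members, full-length MED12 over GFP gave 21 log2 fold changes above 0 (58.3%, against 48.6% of all rows), with a median of 0.02, against -0.01 over all rows. None of the members passed limma's adjusted test (0 of 36, against 0.0136% of all rows). At an unadjusted p under 0.05 there were 2, DNAJB1 and DNAJB4, both higher (5.56%), where 2.8% of all rows were called in either direction and 1.44% were higher. The groups did not overlap for 4 members (11.1%), against 7.72% of all rows. These were DNAJB1, DNAJB4 and DNAJA1, higher, and DNAJC4, lower at -0.19 ± 0.14. For 30 of the 36 the 95% interval of the log2 fold change lay within 1 unit of 0 on both sides. The 6 whose interval reached further were DNAJA1, DNAJB1, DNAJB3, DNAJB4, DNAJC7 and DNAJC22. Intervals lay within that range for 34 members with the PQL/Opa deletion over GFP and for 31 with the shRNA over GFP.

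The PQL/Opa deletion over GFP gave 19 members above 0 (52.8%, against 48.4% of all rows) and a median of 0.01, with -0.01 over all rows. With limma 0 members passed, against 0.00454% of all rows, and 0 reached an unadjusted p under 0.05, against 3.46% of all rows. The arrays did not overlap for 5 members (13.9%), against 7.92% of all rows. DNAJB1 and DNAJC16 were the 2 higher ones, the second at 0.20 ± 0.14, and DNAJC4, DNAJC21 and DNAJC28 the 3 lower ones, at -0.23, -0.22 and -0.27.

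Full-length MED12 was also set directly against the PQL/Opa deletion, in the same vector. The MED12 row averaged 10.68 ± 0.06 and 8.92 ± 0.32 in these groups (SD, n = 3 each), so the 2 domains and the MED12 level cannot be told apart. Which part of MED12 the row's probes cover is not given in the sources used here, so the row may not measure both constructs alike. Here 19 members lay above 0 (52.8%, against 49.7% of all rows) and the median was 0.01. With limma 0 members passed, against 0.00454% of all rows, and 2 had an unadjusted p under 0.05, again DNAJB1 and DNAJB4, both higher (5.56%), against 1.9% of all rows in either direction and 1.11% higher. The 4 members without overlap (11.1%, against 6.91% of all rows) were DNAJA1, DNAJB1, DNAJB4 and DNAJC21, all higher with the full-length construct. The lowest values were those of DNAJB8, a class B member known from testis, at -0.18, the pseudogene DNAJA1P5 at -0.17 and DNAJA3 at -0.17.

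With the shRNA over GFP, 11 of 36 members lay above 0 (30.6%, against 54.4% of all rows), 25 lay below it, and the median was -0.06, where the median of all rows was 0.02. The count above 0 was 18 without replicate 2 of the shRNA and 16 without replicate 2 of GFP. With limma 0 members passed, against 0.0681% of all rows. At an unadjusted p under 0.05 there were 5 (13.9%), DNAJB1, DNAJB4, DNAJC10, DNAJC18 and DNAJC21, all lower, against 5.04% of all rows in either direction and 2.58% lower. Groups did not overlap for DNAJC13, DNAJC18 and DNAJC21, all 3 lower (8.33%, against 8.56% of all rows). The counts rest on single arrays. Without replicate 3 of the shRNA 0 members had an unadjusted p under 0.05, and without replicate 2 or 3 of GFP there was 1. With limma's array weights, by contrast, 14 members passed after adjustment, but so did 5702 of all rows, with replicate 3 of the shRNA at a weight of 8.77 and the other 11 arrays at 3.31 or less.

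**Figure D2:**
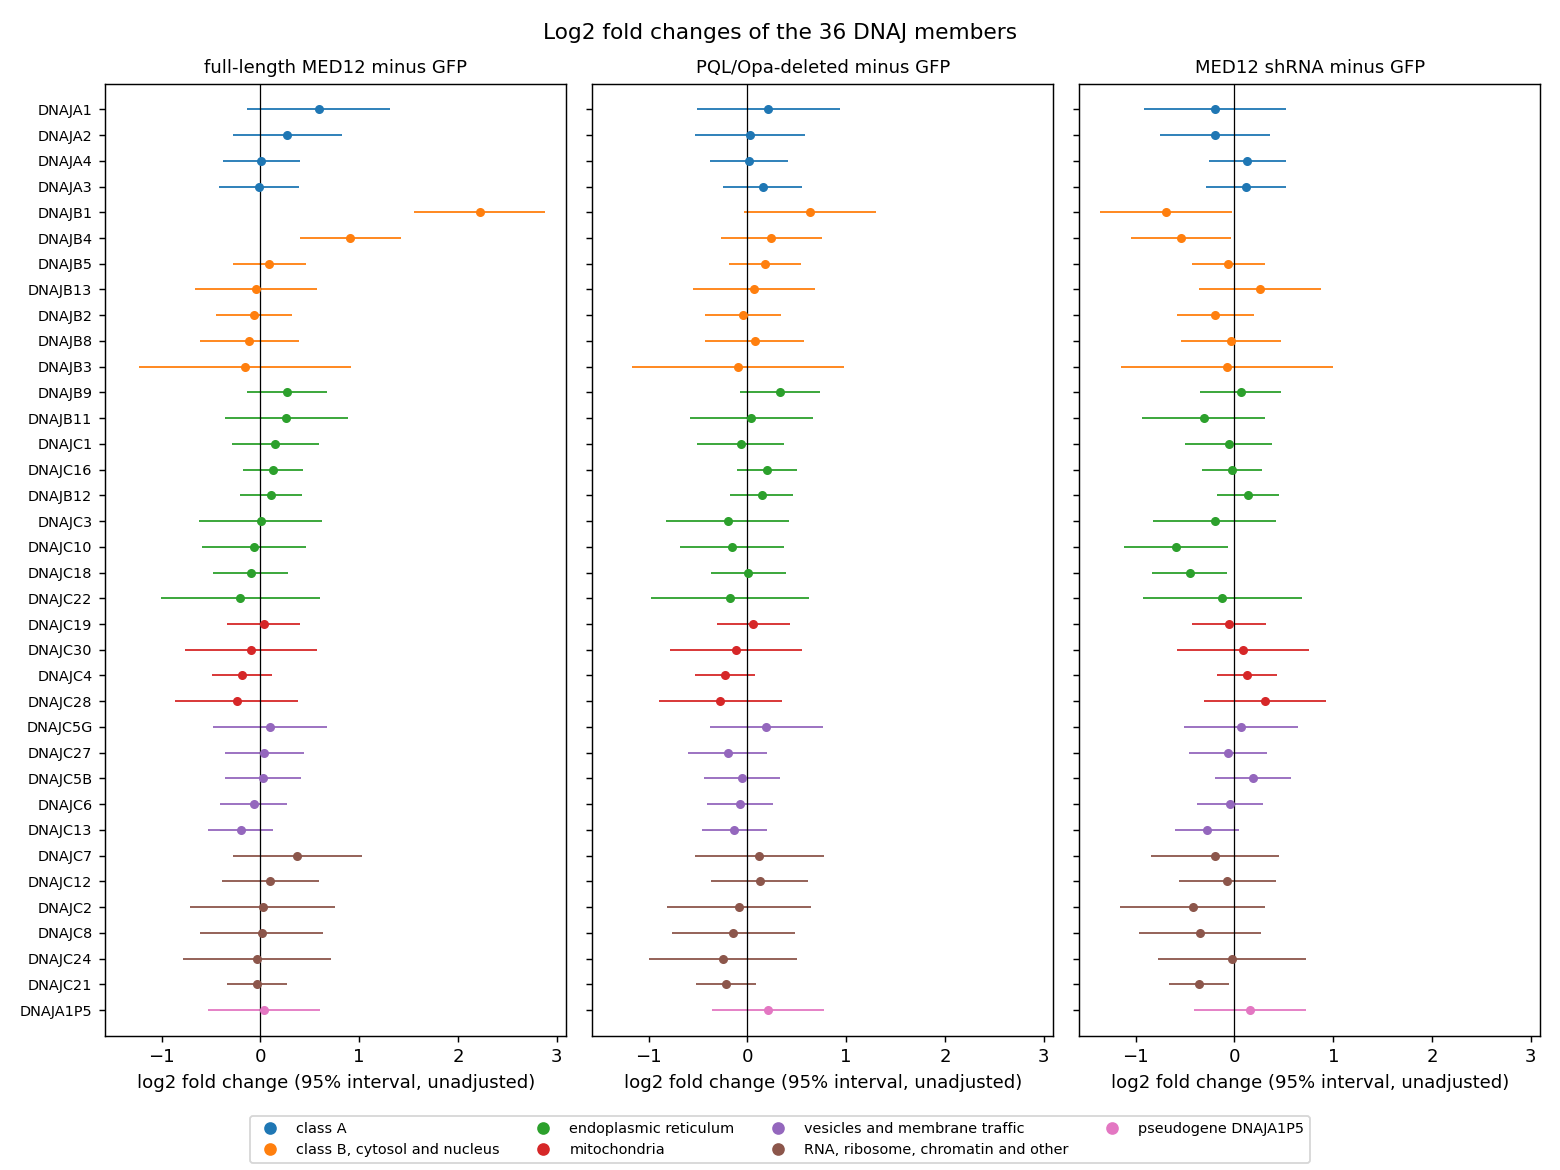
Log2 fold change (horizontal axis) of each of the 36 members (rows, coloured by role) for full-length MED12, the PQL/Opa deletion and the shRNA over GFP (panels), with unadjusted 95% limma intervals; the line marks 0. With full-length MED12 the intervals of DNAJB1 and DNAJB4 lie above 0, with the PQL/Opa deletion every interval includes 0, and with the shRNA the intervals of 5 members lie below 0.

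Among the members of the endoplasmic reticulum, the largest group with 9 members, 6 lay above 0 with full-length MED12, 5 with the PQL/Opa deletion and 2 with the shRNA. These shares are 66.7%, 55.6% and 22.2%, against 48.6%, 48.4% and 54.4% of all rows. DNAJB9, induced by the unfolded protein response and able to bind the stress sensor IRE1, gave 0.27 ± 0.18, 0.33 ± 0.18 and 0.06 ± 0.18 (SE) in these comparisons. DNAJB11, a soluble lumenal co-chaperone of BiP, gave 0.26, 0.04 and -0.31, each ± 0.29. DNAJC3, an inhibitor of the kinase PERK, gave 0.00, -0.20 and -0.20. None of these 3 had an unadjusted p under 0.05 in any comparison.

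DNAJC10 is a lumenal reductase of disulfide bonds that works with BiP. Its log2 values were 4.64, 5.36 and 4.73 with full-length MED12, 4.63, 4.99 and 4.85 with the PQL/Opa deletion, 4.05, 4.80 and 4.29 with the shRNA, and 4.75, 5.04 and 5.14 with GFP. Replicates 1 and 3 of the shRNA were the lowest of the 12, and replicate 2 overlapped with GFP. The log2 fold change of the shRNA was -0.60 ± 0.24 (SE), with an adjusted p of 0.982. DNAJC18, a membrane-anchored member, had 3.27, 3.33 and 3.20 with the shRNA and 3.69, 3.70 and 3.78 with GFP, with no overlap. Its difference was -0.45 ± 0.17, with an adjusted p of 0.959. The other members of the reticulum, DNAJB12, DNAJC1, DNAJC16 and DNAJC22, lay between -0.20 and 0.20 in all 3 comparisons with GFP.

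The 6 members assigned to RNA, ribosome, chromatin and other roles all lay below 0 with the shRNA, with a median of -0.27. Of all rows, 54.4% lay above 0 in that comparison. DNAJC2, DNAJC7, DNAJC8 and DNAJC21 are also among the 12 members of highest mean value. Those 12, which include these genes themselves, averaged -0.64, 0.03 and -0.49 on the shRNA arrays relative to their means over the 12 arrays. On the GFP arrays they averaged -0.42, 0.16 and 0.19. Whether this has a part in the values of the role group was not tested. DNAJC21, which acts in the maturation of the large ribosomal subunit, had 7.56, 7.56 and 7.51 with full-length MED12, 7.29, 7.48 and 7.34 with the PQL/Opa deletion, 7.13, 7.40 and 7.15 with the shRNA, and 7.55, 7.70 and 7.50 with GFP. The PQL/Opa deletion and shRNA arrays all lay below the GFP arrays, and the full-length arrays lay among the GFP arrays. The shRNA difference was -0.36 ± 0.14 (SE), with an adjusted p of 0.982, and that of the PQL/Opa deletion was -0.22 ± 0.14. DNAJC2, a ribosome-associated J protein, gave -0.42 ± 0.33 with the shRNA, and DNAJC8, linked to splicing, gave -0.35 ± 0.28. DNAJC7, which binds both HSP70 and HSP90, gave 0.37 ± 0.30 with full-length MED12, and 0.10 without the first GFP replicate. DNAJC24, an enzyme partner in diphthamide synthesis, and DNAJC12, which binds aromatic amino acid hydroxylases, ranged between -0.25 and 0.13 in the comparisons with GFP.

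The 4 mitochondrial members showed small differences. DNAJC4 read 3.98, 3.86 and 3.80 with full-length MED12, 3.86, 3.86 and 3.80 with the PQL/Opa deletion, 4.29, 3.99 and 4.30 with the shRNA, and 4.11, 4.02 and 4.07 with GFP. All 6 arrays of the MED12 constructs lay below the 3 GFP arrays, and the shRNA arrays lay on both sides of them. Its differences were -0.19, -0.23 and 0.12, each ± 0.14 (SE), none with an unadjusted p under 0.05. DNAJC28 gave -0.24, -0.27 and 0.31, each ± 0.28, and the first of these was 0.09 without the second full-length replicate. DNAJC19, a part of the import motor of the inner membrane, gave 0.03, 0.06 and -0.06. DNAJC30 gave -0.10, -0.11 and 0.09.

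Of the 5 members of vesicle and membrane traffic, DNAJC13, an endosomal protein, had 3.09, 2.92 and 3.10 with the shRNA and 3.47, 3.32 and 3.16 with GFP. The groups did not overlap, and the difference was -0.28 ± 0.15 (SE, unadjusted p = 0.0898). DNAJC6, or auxilin, strips clathrin coats, and its values are given above. DNAJC27, which combines a small GTPase fold with a J domain, gave -0.20 ± 0.18 with the PQL/Opa deletion. DNAJC5B and DNAJC5G, relatives of the synaptic vesicle protein CSP, lay between -0.05 and 0.19 in the comparisons with GFP. The remaining class B members, DNAJB2, DNAJB3, DNAJB5, DNAJB8 and DNAJB13, lay between -0.19 and 0.26. The highest of these was DNAJB13, a sperm flagellum protein, with the shRNA (0.26 ± 0.28), and its second row gave 0.17. DNAJB3 and DNAJA1P5, the second a copy of DNAJA1, are listed as pseudogenes in RefSeq, and with SEs of 0.49 and 0.26 neither had an unadjusted p under 0.05.

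**Figure D3:**
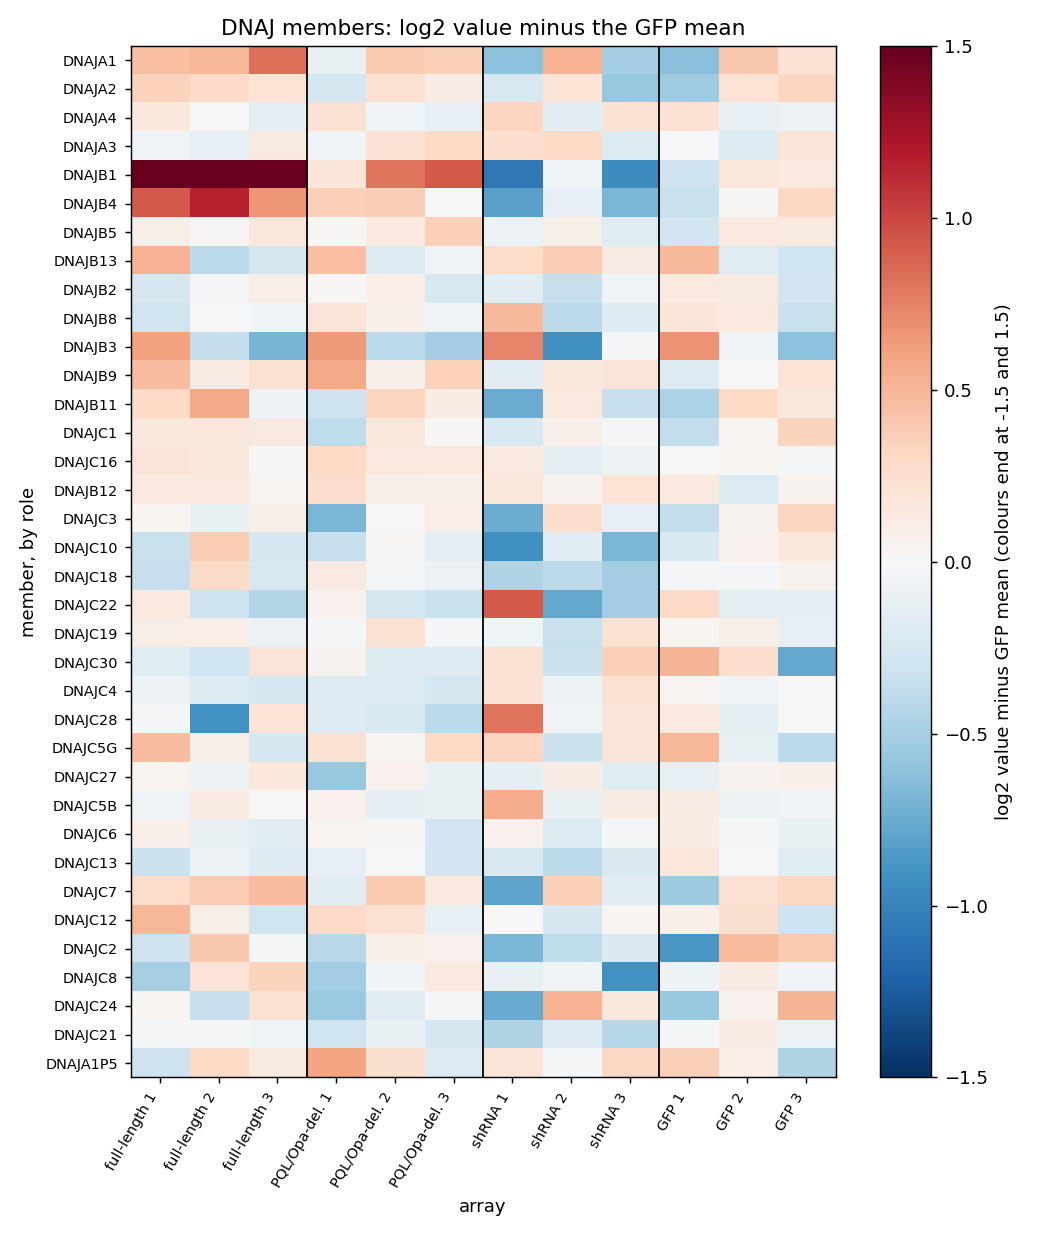
Difference of each log2 value from the GFP mean of the same member (colour) for the 36 members (rows, by role) in the 12 arrays (columns, by group). Red is above and blue below the GFP mean, and the colours end at 1.5, which DNAJB1 passes on all 3 full-length arrays. On the 3 narrowest arrays, replicate 1 of the PQL/Opa deletion, the shRNA and GFP, the bright members DNAJA1, DNAJA2, DNAJB11 and DNAJC7 are all below the GFP mean.

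An order of group means that runs full-length, PQL/Opa deletion, GFP, shRNA from high to low was held by 6 of 36 members (16.7%), namely DNAJA1, DNAJA2, DNAJB1, DNAJB4, DNAJB11 and DNAJC7, and by 5.8% of all rows. This order was picked after the values were seen and no test belongs to it. All 6 are among the 12 members with the highest mean value, and these 12 were lowest on the arrays of narrow spread. Relative to their means over the 12 arrays, they averaged 0.24, 0.48 and 0.39 with full-length MED12, -0.27, 0.20 and 0.11 with the PQL/Opa deletion, -0.64, 0.03 and -0.49 with the shRNA, and -0.42, 0.16 and 0.19 with GFP. The 4 negative values belong to the 4 arrays of narrowest spread. The 3 widest arrays were replicate 2 of the shRNA (SD 1.60) and replicate 3 of the PQL/Opa deletion (1.60) and of GFP (1.60). On them the 12 members averaged 0.03, 0.11 and 0.19, below the full-length arrays, whose SDs were 1.51 to 1.56. The 12 members include DNAJB1, DNAJB4 and DNAJA1, the 3 that stood highest with full-length MED12, so these averages hold those differences too. The ranking by mean value also took in the full-length arrays. DNAJB1 averaged 4.26 over the 12 arrays but 3.72 with GFP, below DNAJC4 (4.07 with GFP), which is not among the 12. The place of DNAJB1 among the 12 thus rests on its full-length values. The part of that spread in the members' differences was not tested beyond the fit without the 3 narrowest arrays. In that fit, the log2 fold change of DNAJB1 with full-length MED12 was 2.07, that of DNAJB4 was 0.75 and that of DNAJA1 was 0.28.

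HSP70 proteins are the partners the J domain acts on, and 12 of 16 listed HSP70 and HSP110 genes had a row of their own. None passed any of the 4 pairwise comparisons over all rows. In the F test among the 4 groups HSPA1L, like DNAJB1, passed (adjusted p = 0.0223), and HSPH1 had an adjusted p of 0.0536. HSPA1L is uncertain because this gene is a close copy of HSPA1A and HSPA1B. Its F test passed when replicate 1 of the PQL/Opa deletion or replicate 1 or 3 of GFP was left out. It also passed after quantile normalization, scale normalization or median centring (adjusted p 0.0123, 0.033 and 0.0248). The same held without dim rows (0.0125), with an intensity trend and robust prior (0.012) and with array weights (0.000216). The F test of HSPA1L did not pass without any other single array (highest adjusted p 0.147, without replicate 2 of full-length MED12). Nor did it pass with the replicate block (0.0579) or without the 3 narrowest arrays (0.0759). With full-length MED12, 11 of 12 lay above 0 (91.7%, against 48.6% of all rows), with a median of 0.22. At an unadjusted p under 0.05 there were 4, all higher (1.44% of all rows were higher at that p). These were HSPH1, an HSP110 exchange factor, at 1.30 ± 0.27 (SE), HSPA1L at 1.16 ± 0.21, HSPA4L at 0.90 ± 0.21 and the constitutive HSPA8 at 0.76 ± 0.17. With the PQL/Opa deletion 9 of 12 lay above 0 (75%, against 48.4% of all rows). HSPA8 (0.62 ± 0.17) and HSPA1L (0.48 ± 0.21) had an unadjusted p under 0.05 there, where 1.75% of all rows were higher. With the shRNA 8 of 12 lay below 0 and 33.3% lay above it, against 54.4% of all rows. HSPH1 (-0.82 ± 0.27), HSPA1L (-0.71 ± 0.21) and HSPA4L (-0.59 ± 0.21) had an unadjusted p under 0.05, where 2.58% of all rows were lower, and HSPA8 gave -0.01 ± 0.17. HSPA5, or BiP, the HSP70 that the reticulum's J proteins serve, gave 0.30, 0.32 and 0.14, each ± 0.39.

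**Figure D4:**
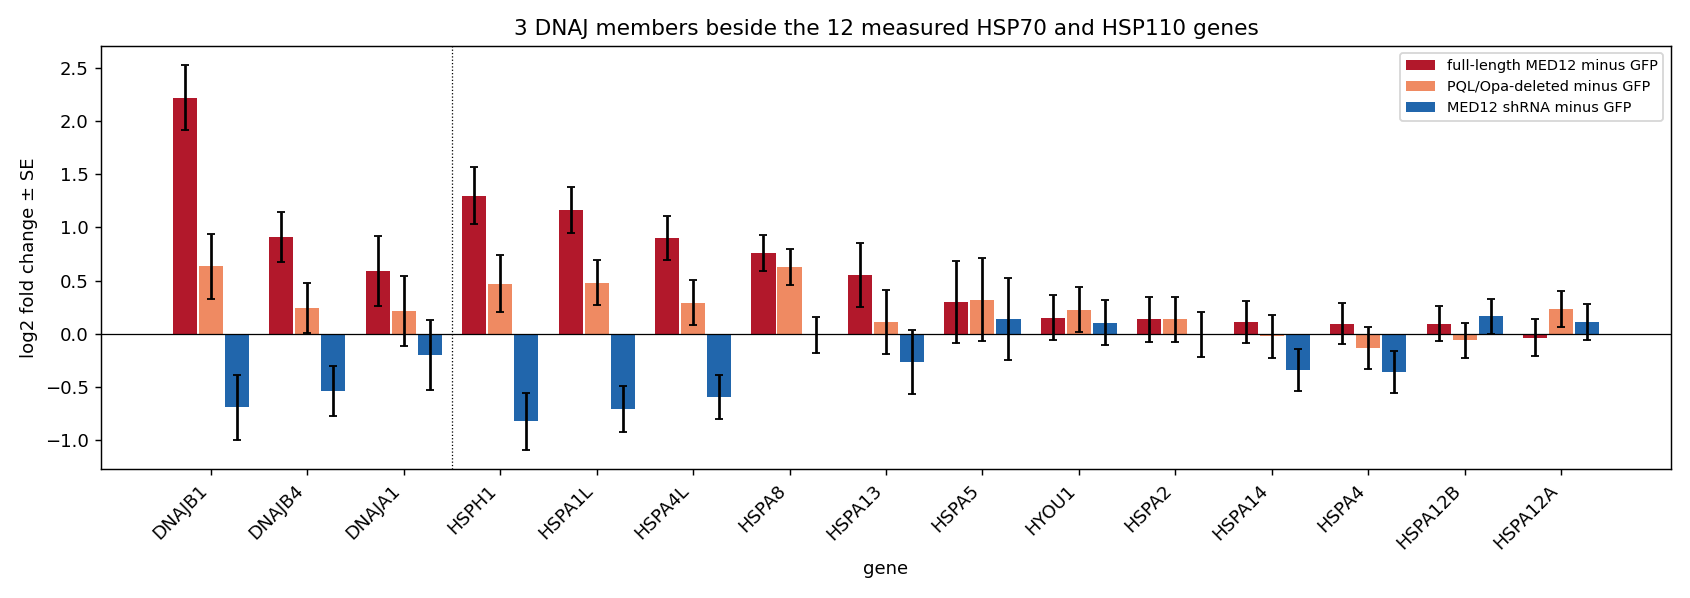
Log2 fold change ± SE (vertical axis, from limma) for full-length MED12, the PQL/Opa deletion and the shRNA over GFP (bars, 3 arrays per group) in DNAJB1, DNAJB4 and DNAJA1, left of the dotted line, and in the 12 measured HSP70 and HSP110 genes, right of it in order of the full-length value. DNAJB1 has the tallest full-length bar of the 15 (2.22), followed by HSPH1 (1.30) and HSPA1L (1.16).

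Other helpers of HSP70 had list medians of 0.22 with full-length MED12, 0.22 with the PQL/Opa deletion and -0.20 with the shRNA, where the HSP70 list had 0.22, 0.23 and -0.14. Of 11 measured nucleotide exchange factors and co-chaperones, 8 lay above 0 with full-length MED12, 8 with the PQL/Opa deletion and 2 with the shRNA. These shares are 72.7%, 72.7% and 18.2%, against 48.6%, 48.4% and 54.4% of all rows. None of the 11 passed over all rows in a pairwise comparison or the F test. BAG3, an exchange factor that links HSP70 to autophagy, gave 0.66 ± 0.17 (SE), 0.22 ± 0.17 and -0.29 ± 0.17, the first with an unadjusted p of 0.00242. STIP1, which bridges HSP70 and HSP90, gave 0.58 ± 0.29, 0.47 ± 0.29 and -0.02 ± 0.29. BAG4 with the PQL/Opa deletion (0.38 ± 0.17) and the mitochondrial exchange factor GRPEL2 with the shRNA (-0.58 ± 0.19) were the only others of this list with an unadjusted p under 0.05 against GFP. At that p 1.44% of all rows were higher with full-length MED12, 1.75% higher with the PQL/Opa deletion and 2.58% lower with the shRNA. BAG5 had the lowest value with the shRNA, -0.69 ± 0.36. SIL1, the exchange factor of BiP, gave -0.38 ± 0.24 with full-length MED12.

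Of 4 listed J proteins that carry another name, 2 were measured. GAK, the widely expressed relative of auxilin, gave 0.04, 0.04 and 0.05, each ± 0.15 (SE), and SEC63, the J protein of the translocation channel, gave -0.16, -0.25 and -0.52, each ± 0.30. Among heat shock factors, HSF1 gave -0.19, -0.02 and -0.01, each ± 0.25, and HSF4 gave -0.14, -0.17 and 0.01, each ± 0.19. Of 8 measured small heat shock, HSP90 and chaperonin genes, 6 lay above 0 with full-length MED12, 6 with the PQL/Opa deletion and 3 with the shRNA. These shares are 75%, 75% and 37.5%, against 48.6%, 48.4% and 54.4% of all rows. The collagen chaperone SERPINH1 gave 0.77 ± 0.16 and the HSP90 co-chaperone FKBP4 gave 0.91 ± 0.40 with full-length MED12, both with an unadjusted p under 0.05, where 1.44% of all rows were higher. HSP90AA1, the inducible HSP90, gave 0.07 ± 0.18 with full-length MED12, -0.51 ± 0.18 with the PQL/Opa deletion (unadjusted p = 0.0156) and -0.49 ± 0.18 with the shRNA (unadjusted p = 0.0189). CACYBP gave -0.49 ± 0.20 with the shRNA (unadjusted p = 0.0349). At an unadjusted p under 0.05, 3.46% of all rows were called in either direction with the PQL/Opa deletion and 2.58% were lower with the shRNA. None of the listed heat shock and chaperone genes outside the DNAJ family passed any of the 4 pairwise comparisons over all rows, and HSPA1L was the one that passed the F test.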

How the data were processed

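RNA of sorted HEK293 cells was amplified, labelled with biotin and hybridised to 12 one-colour arrays. The deposited values are log2 intensities normalized by the authors with RMA in Partek on build hg18, per the submitters' processing notes. For versions, probe set level and filters, the entry is: not given in the sources used here. The values were used as deposited, with no filter or offset, and gene symbols came from the platform annotation. The symbols of all 36 members matched RefSeq. The number of arrays limits the precision, and the median SE of a member's log2 fold change was 0.23.

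With limma 3.58.1 (R 4.3.3) a model of 4 group means was fitted to the 12 arrays (8 residual and 3.52 prior degrees of freedom), with two-sided contrasts and a moderated F test. For 3 arrays a group, 0.1 is the smallest p that exact permutation can give. The code of the fit was also run on simulated data with independent values in each row. Those data lack the differences in array spread and the correlations between arrays seen here, so the run checks the code only. As a check of pairing, each array's deviations from its group mean were correlated over rows with those of the array of equal number in the other group. The 3 correlations were 0.101 to 0.229 between the full-length and GFP arrays and 0.149 to 0.472 between the PQL/Opa deletion and GFP arrays. They were 0.022 to 0.464 between shRNA and GFP and 0.076 to 0.240 between the 2 constructs. A limit of 0.1 in every pair was met in the first 2 comparisons only. The 2 highest correlations, 0.472 and 0.464, were those of replicate 1, where both arrays were narrow. The check therefore cannot tell pairing by the number from a shared array spread.

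DNAJB1, DNAJB4 and DNAJA1 are given in full. In each comparison up to 5 members per direction with the smallest unadjusted p are named, and in each role group the members with the highest and lowest mean; others are named to account for every member or because a count of 5 or fewer includes them, chosen after their values were seen. Members, lists and tests were chosen with earlier results of these data known. Start windows came from RefSeq (GRCh38.p14), and 6 members have none in that table. Alternatives were the replicate block, 3 normalizations, a filter on dim rows, an intensity trend, fits on the groups compared, array weights, averaged rows, and leaving out single or narrow arrays.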

Additional observations from a re-analysis of the deposited data

How the results depend on the processing

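The log2 fold change of DNAJB1 with full-length MED12 over GFP stayed between 2.01 and 2.39 when each array was left out, with adjusted p between 0.0175 and 0.421. It was past the threshold with the replicate block (2.22, adjusted p = 0.016), without dim rows (2.22, adjusted p = 0.0422), with an intensity trend and robust prior (2.22, adjusted p = 0.0375) and with array weights (2.12, adjusted p = 0.00293), so that 1 member passed in each of these 4 fits, and 0 or 1 when an array was left out. It did not pass after quantile normalization (2.15, adjusted p = 0.153), scale normalization (2.23, 0.173) or median centring (2.22, 0.163), with only the groups compared (2.22, 0.0853), with averaged rows (2.22, 0.0664) or without the 3 narrowest arrays (2.07, 0.25). The replicate block changed no other call of a member; with it 4 rows in place of 3 passed for full-length MED12 and 2 in place of 1 for the PQL/Opa deletion.

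With array weights 14 members passed for the shRNA over GFP (0 in every fit that left out an array) and 12 passed the F test. The F test passed 0 members without the 3 narrowest arrays, and 0 or 1 when an array was left out. For the shRNA over GFP 15 rows passed, against 4 with only the groups compared, 23 after quantile normalization, 5702 with array weights, and 5 and 8 without replicates 2 and 3 of GFP. The cause of these changes was not tested.

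The members' median for the shRNA over GFP, -0.0642, was -0.0908 after quantile normalization, -0.0983 after scale normalization, -0.0995 after median centring, -0.1995 without dim rows, -0.1264 with array weights and -0.1229 without the narrow arrays, and between -0.0918 and -0.026 when an array was left out. That for full-length over PQL/Opa deletion, 0.0097, was 0.1805 without dim rows, 0.0534 without the narrow arrays and between -0.0254 and 0.0813 when an array was left out. That for full-length over GFP, 0.0174, was -0.0241 with array weights and between -0.0009 and 0.0484 when an array was left out.

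Differences of the following members, none past the threshold, turned sign when an array was left out. The ranges were -0.099 to 0.4131 for DNAJA1 with the PQL/Opa deletion over GFP, -0.5615 to 0.0072 for DNAJA1 with the shRNA over GFP, -0.4641 to 0.0926 for DNAJC28 and -0.2899 to 0.0278 for DNAJC18 with full-length over GFP. For full-length over PQL/Opa deletion they were -0.2989 to 0.0188 for DNAJC18, -0.1621 to 0.0073 for DNAJB5 and -0.3775 to 0.0158 for DNAJA1P5, which was also 0.0158 without the narrow arrays.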
